A study of Homo sapiens with 6 samples.

Results

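Immediate-early genes are those a cell transcribes within minutes of a stimulus, without first making new protein. The 10 studied here were EGR1, the AP-1 subunits FOS, FOSB, FOSL1, JUN and JUNB, the related factor ATF3, the response genes IER2 and IER3, and MYC. They were taken by gene symbol out of the 57500 genes counted in HepG2 cells, with earlier results of the same glycine comparison in view. The values that entered that choice were the glycine and vehicle levels themselves. The difference of these 10 genes between the groups is therefore given as a description, without a p-value.

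HepG2 is an established human hepatocarcinoma line, wild type in all libraries. Cells received glycine at 10 mM or vehicle for 24 h, with 3 libraries per group, and total RNA was sequenced. By the study's methods the standard medium already contained glycine, so the vehicle cells were not without it. The study took replicates from different days, and the labels number the libraries 1 to 3 within each group. Totals ranged from 31795489 to 58815986 counts per library, the deepest being glycine replicate 2, and 1 count was worth between 0.017 and 0.0315 CPM on the unscaled totals. CPM are counts relative to library size, and CPM levels of genes use library sizes scaled by edgeR. The 10 hepatocyte markers, among them albumin and apolipoprotein B, summed to between 28500 and 36900 CPM. Their median log2 change was -0.21, against 0.00 over all tested genes, and 2 of the 10 changes were above 0. TTR and APOA1 were called lower with glycine (edgeR adjusted p = 0.00921 and 0.0483). APOA1 kept its call only without vehicle replicate 2, with an edgeR adjusted p of up to 0.168 (without glycine replicate 1). The 10 markers of leukocytes, endothelium and fibroblasts summed to 10.3 to 11.1 CPM with vehicle and 14 to 15.7 CPM with glycine. CD3E was at 0 in every library, and no library held more than 5.59 CPM of any of these markers. CD14 and COL1A1 rose with log2 changes of 0.98 and 1.03 (edgeR adjusted p = 0.00016 and 0.000585). VWF fell with -1.18 (edgeR adjusted p = 0.0239), from 0.628, 0.43 and 0.695 CPM to 0.251, 0.239 and 0.284 CPM. It lay above the filter minimum of 0.28 CPM in every vehicle library but not in every glycine library. VWF was thus tested only because it was high with vehicle, so its p-value is a description. Its call was kept only without vehicle replicate 2. The part of these markers in the results below was not tested, and in bulk RNA fewer cells of a type and less RNA per cell cannot be told apart.

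Growth factors, stress and depolarisation reach these genes through mitogen-activated protein kinases and through calcium and cAMP. The signals act on factors already bound to the promoters, chiefly SRF with its ETS partners at serum response elements and CREB at cAMP response elements. FOS and JUN family proteins pair through leucine zippers to form AP-1, whereas EGR1 binds GC-rich DNA through zinc fingers and is held back by the co-repressors NAB1 and NAB2, the second of which it switches on. In a culture with one stimulus the first wave usually fades within hours. A sample taken after a day thus shows the standing level of these transcripts, not their first peak.

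Of the 10 genes, 7 had a promoter window in the RefSeq table used here (GRCh38.p14, from 250 bases before to 50 bases after the start). FOSL1, IER3 and MYC had none. A CArG box, the core of the serum response element (CC, then 6 letters of A or T, then GG), was found in EGR1 alone, where it occurred 2 times, and 1.6% of the 27305 genes in the table held one. The cAMP response element core TGACG, read on both strands, was present in 6 of the 7, and in 28.4% of all genes in the table. ATF3 was the gene without it. The 150 bases before the start are shown for EGR1 and IER2, higher with glycine as described below, and for FOS and JUNB, whose groups overlapped. They lie at chr5:138465329-138465478, chr19:13150261-13150410, chr14:75278678-75278827 and chr19:12791336-12791485, all on the plus strand, and read 5′ to 3′. Capitals mark CArG boxes and cAMP response element cores.
EGR1: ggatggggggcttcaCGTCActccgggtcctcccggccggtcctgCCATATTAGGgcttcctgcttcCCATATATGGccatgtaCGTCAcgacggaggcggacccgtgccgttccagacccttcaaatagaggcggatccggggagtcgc
IER2: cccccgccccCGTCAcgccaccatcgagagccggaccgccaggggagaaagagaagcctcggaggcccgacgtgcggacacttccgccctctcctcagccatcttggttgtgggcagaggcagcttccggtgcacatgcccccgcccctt
FOS: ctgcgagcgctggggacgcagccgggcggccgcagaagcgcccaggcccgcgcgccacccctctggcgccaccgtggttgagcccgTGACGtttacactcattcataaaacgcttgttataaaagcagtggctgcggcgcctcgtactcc
JUNB: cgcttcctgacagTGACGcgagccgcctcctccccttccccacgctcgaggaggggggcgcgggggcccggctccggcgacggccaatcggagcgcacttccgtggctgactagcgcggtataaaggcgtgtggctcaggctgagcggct
The boxes of EGR1 ran from -105 to -96 and from -83 to -74 relative to the start, between cAMP cores at -135 to -131 and -66 to -62. In FOS the core lay at -64 to -60, before the letters TATAAA, the core of a TATA box, at -33 to -28. The same letters lay at -30 to -25 in FOSB and at -31 to -26 in JUNB. ATF3 had windows at separate starts, with the 150 bases before them at chr1:212565257-212565406 and chr1:212614868-212615017. Its match was in the latter window, inside the gene, at -230 to -225, far from the usual place of a TATA box. Anywhere in the window, these letters were in 4 of the 7 and in 14% of genes in the table. The full cAMP element TGACGTCA (2.25% of genes in the table), the AP-1 element TGANTCA (9.37%) and the E-box CACGTG (8.77%) were in none of the 7 windows. The EGR element GCGNGGGCG was in EGR1 alone (11.2%) and the ETS sequence CCGGAAG in IER2 alone (12.2%). Shorter or variant ETS sequences were not searched. Each motif was searched on both strands, and a match describes letters in the window, not an occupied site. Sequence farther from the start was not searched. A gene without a match, such as FOS for the CArG box, may thus hold the element outside the window. The core TGACG is part of the full cAMP element.

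EGR1, FOSL1, IER2 and IER3 were higher with glycine, FOS, FOSB, JUN, JUNB, ATF3 and MYC overlapped between the groups, and no gene of the 10 was lower. All 10 were expressed enough to be tested, each above the filter minimum of 0.28 CPM (unscaled totals) in all 3 libraries of both groups. The 4 higher genes also passed the threshold of the edgeR fit across 15492 genes (adjusted p under 0.05). In that fit 13.3% of genes passed in either direction, 6.71% as higher and 6.54% as lower. Glycine libraries lay all above the vehicle libraries for 17.2% of tested genes and all below for 14.4%. Since the 10 genes were chosen on this contrast, nothing is read from these counts. The median log2 change was 0.20 over the 10 genes and 0.00 over all tested genes.

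**Figure D1:**
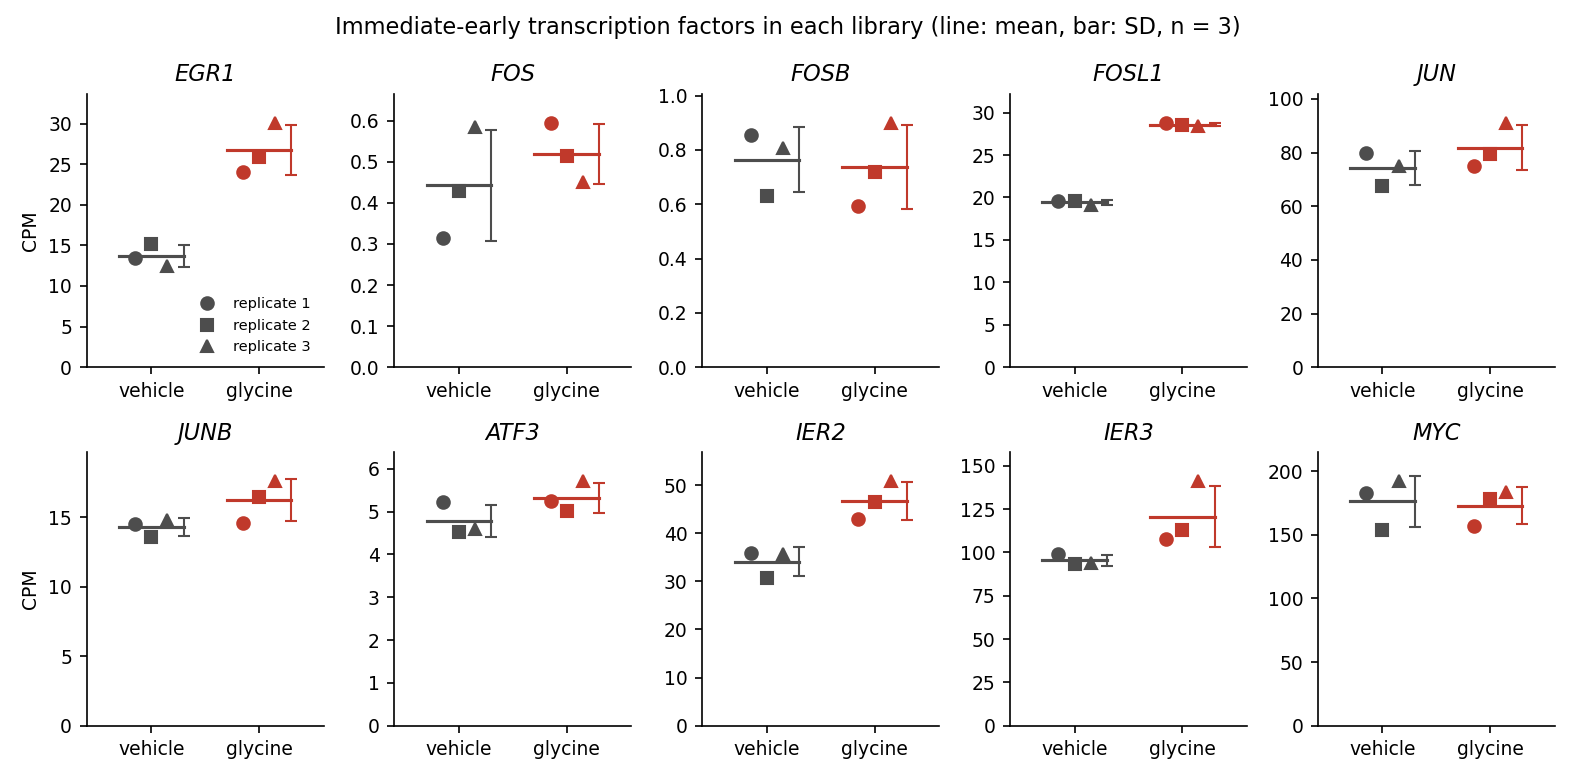
Level of each immediate-early gene in CPM (vertical axis, linear from 0) in the vehicle (grey) and glycine (red) libraries; symbols are replicates 1 to 3, horizontal lines the group means and bars the SD (n = 3). For EGR1, FOSL1, IER2 and IER3 every glycine library lies above every vehicle library, and for the other 6 genes the groups overlap.

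EGR1 (ENSG00000120738, chromosome 5, 138465490 to 138469315, GRCh38) encodes a zinc-finger activator induced by growth factors and by stretch. Its level was 13.4, 15.2 and 12.5 CPM in vehicle replicates 1 to 3 and 24.1, 25.9 and 30.1 CPM in glycine replicates 1 to 3. Every glycine library was above every vehicle library, and glycine replicate 3 stood highest. The group means were 13.7 ± 1.34 and 26.7 ± 3.11 CPM (SD, n = 3), a ratio of 1.95. The edgeR log2 change was 0.97 ± 0.0979 (s.e.), with a 95% interval from 0.75 to 1.18. It was smallest without glycine replicate 3, at 0.86.

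The other EGR genes were not among the 10, and their levels were far lower. EGR3, which drives muscle spindle and lymphocyte programmes, had 7, 9 and 9 counts with vehicle and 30, 49 and 57 with glycine. Its log2 change was 2.12 ± 0.31 (edgeR adjusted p = 0.000588). EGR4 had 3, 4 and 10 counts with vehicle and 15, 38 and 20 with glycine (log2 change 1.74 ± 0.404, edgeR adjusted p = 0.0124). EGR4 lost its call without vehicle replicate 1 (edgeR adjusted p = 0.0612) or glycine replicate 2 (0.0694). Both genes reached the filter minimum in the glycine libraries only. They were thus tested only because they were high there, so their p-values and calls are given as description and carry no support for the EGR family. EGR2, a myelination and lymphocyte factor, had 0, 0 and 1 counts with vehicle and 2, 9 and 5 with glycine and was too low to test. Per exon length, EGR1 made up 97.3 ± 1.34% of the EGR family total in vehicle and 94.8 ± 0.302% in glycine libraries. That total was 15.6 ± 1.14 TPM with vehicle and 31.6 ± 4.2 TPM with glycine (SD, n = 3). TPM are counts per kilobase of exon, scaled to the same sum in every library. The co-repressors NAB1 and NAB2 stood at 38.1 ± 3.71 and 32.8 ± 2.85 CPM with vehicle, with log2 changes of -0.03 and 0.07 (edgeR adjusted p = 0.833 and 0.609). WT1, a related zinc-finger factor, was not called either.

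FOSL1 (ENSG00000175592, chromosome 11, 65892049 to 65900573) encodes FRA-1, a FOS protein that lacks the strong activation domain of c-FOS and is typical of sustained rather than transient ERK signalling. Its level was 19.6, 19.6 and 19.1 CPM with vehicle and 28.8, 28.6 and 28.4 CPM with glycine. The libraries of a group lay within less than 1 CPM of each other, and the groups were well apart. The means were 19.4 ± 0.306 and 28.6 ± 0.184 CPM, a ratio of 1.47, with a log2 change of 0.56 ± 0.066 and a 95% interval from 0.41 to 0.70. Its biological coefficient of variation in the edgeR fit, 5.64%, was the smallest among the 10.

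FOS (ENSG00000170345, chromosome 14, 75278774 to 75282230), the classic immediate-early gene, was low in every library. It had 11, 15 and 21 counts with vehicle and 19, 30 and 19 with glycine, which is 0.314, 0.43 and 0.584 against 0.595, 0.513 and 0.45 CPM. The groups overlapped, and the log2 change was 0.21 ± 0.298 with a 95% interval from -0.43 to 0.85. FOSB (ENSG00000125740, chromosome 19, 45467995 to 45475179), whose truncated splice form is long-lived, was also low. Its level was 0.856, 0.631 and 0.807 CPM with vehicle and 0.595, 0.718 and 0.9 CPM with glycine, and its log2 change of -0.04 had a 95% interval from -0.57 to 0.49. A change of the size given for FOSL1 lies inside the interval of FOS and just outside that of FOSB, so for FOS it could not be told from no change at this depth.

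FOSL2, which encodes FRA-2, is the remaining family gene. It stood at 31.3, 32.1 and 31.5 CPM with vehicle and 35.5, 36.2 and 37.0 CPM with glycine. Its libraries did not overlap, but the change of 0.19 ± 0.0625 missed the threshold (edgeR adjusted p = 0.0567). Per exon length, FOSL1 made up 69.2, 68.7 and 68.1% of the FOS family total in the vehicle libraries and 74.4, 73.9 and 73.4% in the glycine libraries. FOSL2 made up 29.5 ± 0.295% and 24.7 ± 0.493%. FOS and FOSB each made up no more than 1.22% in any library. The family total was 52.3 ± 1.55 TPM with vehicle and 72.2 ± 2.83 TPM with glycine. FOSL1 thus held most of the FOS family transcript in both groups.

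**Figure D2:**
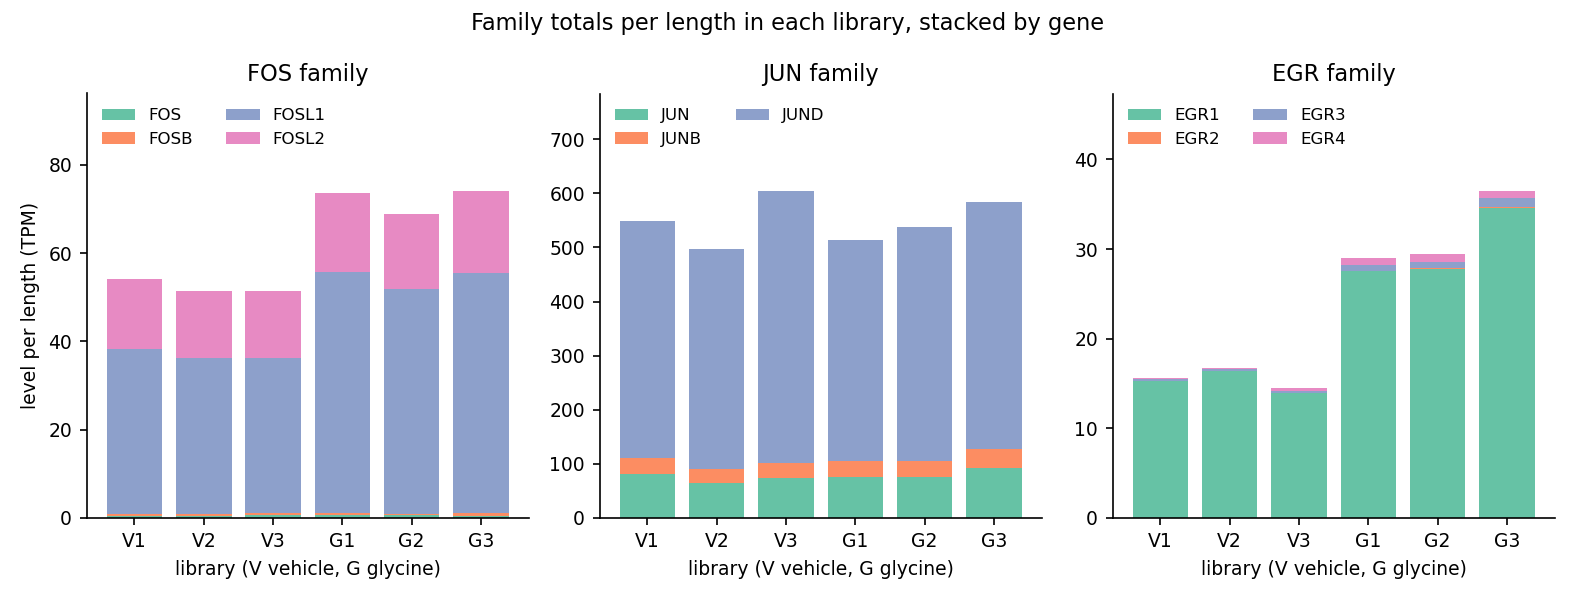
Level per exon length in TPM (vertical axes, stacked bars) of the FOS, JUN and EGR family genes in each of the 3 vehicle (V) and 3 glycine (G) libraries. FOSL1 makes up most of the FOS family, JUND most of the JUN family and EGR1 nearly all of the EGR family in every library, and the FOS and EGR totals are higher in all glycine libraries.

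The JUN genes supply the other side of AP-1. JUN (ENSG00000177606, chromosome 1, 58780788 to 58784327), which encodes the strongest activator of the family, was at 80.0, 67.4 and 75.1 CPM with vehicle and 75.0, 79.3 and 91.1 CPM with glycine. The groups overlapped, and the log2 change was 0.14 ± 0.0834 with a 95% interval from -0.04 to 0.32. JUNB (ENSG00000171223, chromosome 19, 12791496 to 12793315), a weaker activator that can oppose c-JUN, was at 14.5, 13.6 and 14.8 CPM with vehicle and 14.6, 16.5 and 17.6 CPM with glycine. Glycine replicate 1 lay inside the vehicle range, and the log2 change was 0.19 ± 0.0872 with an interval from 0.00 to 0.38. HOOK2 covers 14.2% of the exon length of JUNB on the other strand, and its own log2 change was -0.14 (edgeR adjusted p = 0.349). JUND, the JUN gene that is expressed in resting cells, was the most abundant, at 226, 224 and 270.0 CPM with vehicle and 212, 239 and 236 CPM with glycine (log2 change -0.07, edgeR adjusted p = 0.652). Per exon length JUND made up 81.7 ± 1.64% of the JUN total with vehicle and 79.4 ± 1.09% with glycine. The JUN total was 550.0 ± 52.9 TPM and 546 ± 36.1 TPM.

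ATF3 (ENSG00000162772, chromosome 1, 212565334 to 212620777) encodes a stress-induced repressor that pairs with JUN proteins and is also a target of the integrated stress response. It stood at 5.22, 4.53 and 4.59 CPM with vehicle and 5.26, 5.02 and 5.71 CPM with glycine. The groups overlapped, and the log2 change was 0.16 ± 0.113 with a 95% interval from -0.09 to 0.40.

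IER2 (ENSG00000160888, chromosome 19, 13150415 to 13154908) encodes a small nuclear protein first found as a growth factor response gene. Its level was 36.0, 30.6 and 35.7 CPM with vehicle and 42.9, 46.4 and 50.8 CPM with glycine, all glycine libraries lying above all vehicle libraries. The means were 34.1 ± 3.03 and 46.7 ± 3.97 CPM, a ratio of 1.37, and the log2 change was 0.45 ± 0.0829 with a 95% interval from 0.27 to 0.63. An annotated gene on the other strand covers 30.8% of its exon length but had 0 counts in all libraries. IER3 (ENSG00000137331, chromosome 6, 30743199 to 30744554) encodes a regulator of survival and of ERK dephosphorylation. Its level was 98.9, 93.1 and 94.0 CPM with vehicle and 108, 113 and 141 CPM with glycine. The groups did not overlap, but glycine replicate 3 stood well above the other 2 glycine libraries. The log2 change was 0.34 ± 0.0891 with a 95% interval from 0.15 to 0.53, and 0.20 without glycine replicate 3. IER3 no longer passed the threshold without that library, without vehicle replicate 1 (0.36) or without vehicle replicate 2 (0.33). The antisense gene IER3-AS1 covers 26.5% of the exon length of IER3 and was at 0.805 to 1.2 CPM (log2 change -0.45, edgeR adjusted p = 0.159).

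MYC (ENSG00000136997, chromosome 8, 127735434 to 127741434), a driver of growth and ribosome production that is held at a high level in many tumour lines, was at 183, 154 and 192 CPM with vehicle. With glycine it was at 157, 178 and 184 CPM, inside the vehicle range. The log2 change was -0.02 ± 0.0856 with a 95% interval from -0.21 to 0.16. It lay between -0.11 and 0.04 when single libraries were left out.

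**Figure D3:**
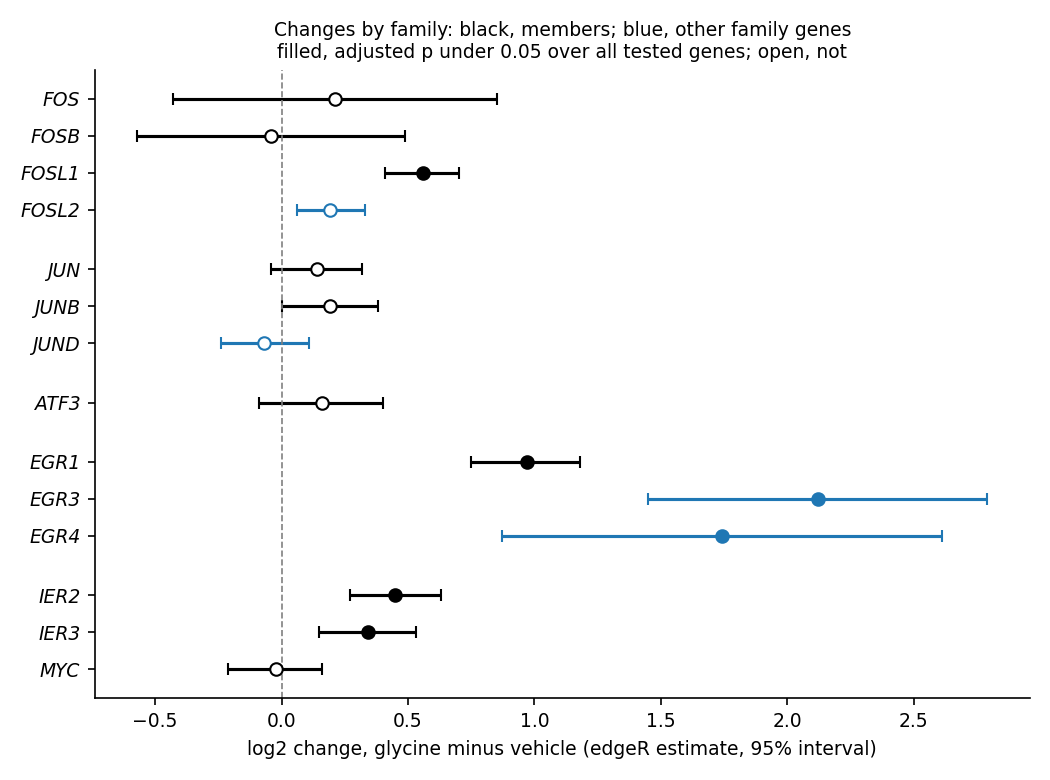
Log2 change (horizontal axis, glycine minus vehicle, edgeR estimate with 95% interval) of the 10 immediate-early genes (black) and of the other FOS, JUN and EGR family genes that could be tested (blue); filled symbols passed the adjusted p threshold of 0.05. EGR3 and EGR4 have the widest intervals among the filled symbols, and those of FOS and FOSB span 0 widely.

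Per exon length, which allows different genes to be compared, the order with vehicle was IER3 (245 TPM), MYC (205), JUN (73.2), IER2 (38.8), FOSL1 (35.9), JUNB (27.4), EGR1 (15.2), ATF3 (4.13), FOSB (0.482) and FOS (0.475). With glycine the means were 314 TPM for IER3, 203 for MYC, 81.4 for JUN, 53.5 for IER2, 53.3 for FOSL1, 31.4 for JUNB, 30.0 for EGR1, 4.65 for ATF3, 0.565 for FOS and 0.468 for FOSB. The libraries of neighbours overlapped for IER2 with FOSL1 and for FOS with FOSB in both groups, so these pairs have no order. JUNB and EGR1 were apart with vehicle, at 25.3 to 28.7 against 13.9 to 16.4 TPM. With glycine they overlapped, at 28.7 to 34.9 against 27.5 to 34.6 TPM. Genes on the other strand cover 30.8% of the exon length of IER2, 26.5% of IER3 and 14.2% of JUNB. The strand setting is not given, so the places of these genes in the order may be affected.

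Many of the 10 genes deviated from their group mean together in glycine replicates 1 and 3, and the median deviations in the vehicle libraries were smaller. On the log2 CPM scale, 8 of the 10 lay above the glycine mean in glycine replicate 3, with a median deviation of 0.12, whereas 51.3% of all tested genes did. FOS and FOSL1 were the exceptions. In glycine replicate 1, 8 of the 10 lay below the mean, with a median of -0.13, and FOS and FOSL1 were again the exceptions, while 49.9% of all tested genes lay above. In glycine replicate 2, 2 of 10 lay above the mean, but the median was only -0.01. In the vehicle group, 8 of 10 lay above the mean in replicate 1 and 2 of 10 in replicate 2, with medians of 0.06 and -0.07, against 51.3% and 50.7% of all tested genes. In vehicle replicate 3 it was 6 of 10. FOSL1 deviated by at most 0.03 in any library, compared with up to 0.24 for IER3, 0.18 for EGR1, 0.19 for MYC and 0.40 for FOS. With the gene length trend of each library removed, 9 of 10 lay above the mean in glycine replicate 3, 2 of 10 in glycine replicate 1 and 1 of 10 in glycine replicate 2, against 45.9%, 52.8% and 52.4% of all tested genes. For vehicle replicates 1 to 3 the numbers were 8, 4 and 6 of 10, against 45.2%, 54.7% and 51.8%. The median biological coefficient of variation was 7.67% over the 10 genes and 7.39% over all tested genes. The 3 deviations of a gene in a group add to about 0 and the genes share libraries, so these values are a description.

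**Figure D4:**
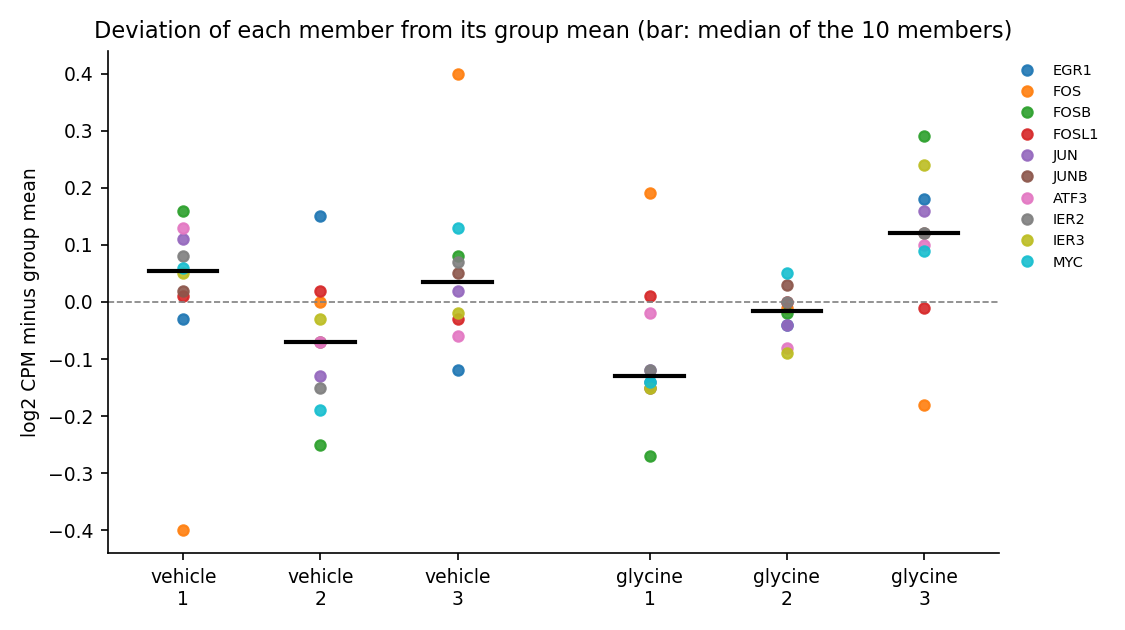
Deviation of log2 CPM from the group mean (vertical axis) for each of the 10 genes (coloured points) in each library; black bars are the median over the 10 genes. Most points lie below 0 in glycine replicate 1 and above 0 in glycine replicate 3, and FOSL1 stays near 0 throughout.

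The genes whose pattern over the 6 libraries lay nearest to that of EGR1 were F2RL1, SH2D5, IL11, AXL and KRT23. Likeness was the Euclidean distance of log2 CPM centred on each gene's mean, over the 9110 tested genes averaging at least 10 CPM. The distances were 0.175 for F2RL1, a protease-activated receptor, 0.222 for SH2D5, 0.24 for IL11, a cytokine of the interleukin 6 family, 0.255 for AXL, a receptor tyrosine kinase, and 0.258 for KRT23, a keratin. The median distance was 1.23. F2RL1 was at 45.7, 47.0 and 43.5 CPM with vehicle and 82.7, 91.4 and 94.7 CPM with glycine. Pearson correlations with EGR1 ran from 0.977 to 0.99 for these 5, across 6 libraries that form 2 separate groups, so they mainly restate the group difference. Of the other immediate-early genes at this level, FOSL1 ranked 56th, IER2 124th and IER3 207th, while JUNB ranked 968th, JUN 1628th and MYC 5676th.

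The wider pathway was described with 9 further lists of 165 genes in all, of which 151 were tested. A total of 34 were higher, or 22.5%, against 6.71% of all tested genes (edgeR adjusted p under 0.05). The 11 lower genes made up 7.28%, close to the 6.54% of all tested genes. The list counts given next are to be read against the same shares of 6.71% and 6.54%. Without the genes that reached the filter minimum in 1 group only, which include EGR3 and EGR4, 32 of 148 were higher and 11 lower. Median log2 changes were 0.04 and 0.00. The lists were written with earlier results of these data known, so their counts and medians are a description. Some genes stand in more than 1 list.

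Other immediate-early genes had the most calls: 15 of the 45 tested were higher, 2 lower and 28 not called (list median 0.09 on the log2 scale). AREG, an EGF receptor ligand, was at 9.22, 8.31 and 9.6 CPM with vehicle and 15.4, 16.7 and 18.2 CPM with glycine (log2 change 0.89 ± 0.0926, edgeR adjusted p = 3.47e-05). DUSP5, a nuclear phosphatase of ERK, went from 6.43 ± 0.298 to 13.0 ± 1.87 CPM (log2 change 1.02, edgeR adjusted p = 5.93e-05). The matricellular genes CCN2 and CCN1 rose by the same log2 amount of 0.68 (edgeR adjusted p = 0.000149 and 0.000488), and CCN2 went from 147 ± 10.1 to 236 ± 27.1 CPM. TRIB1, a pseudokinase, had 0.49 (edgeR adjusted p = 0.00027). These 5 kept their call whichever library was left out. The lower genes were SGK1, a kinase also known for its response to cell volume, with -0.23, and NR4A1, an orphan nuclear receptor, with -0.41 (edgeR adjusted p = 0.0262 and 0.043). SGK1 kept its call only without vehicle replicate 2, and without any other library its edgeR adjusted p lay between 0.0511 (vehicle replicate 3) and 0.0856 (glycine replicate 1). NR4A1 overlapped between the groups by a single pair of libraries, 8.99 CPM in vehicle replicate 1 and 9.03 CPM in glycine replicate 3. It lost its call without vehicle replicate 2, vehicle replicate 3, glycine replicate 1 or glycine replicate 2 (edgeR adjusted p = 0.0725, 0.126, 0.113 and 0.164). With total count scaling of all libraries NR4A1 was not called either (edgeR adjusted p = 0.0632).

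Among the AP-1 partners and other bZIP factors, 1 of 13 tested genes was higher and 1 lower (list median -0.06 on the log2 scale). BATF, a bZIP factor best known from lymphocytes that competes with FOS for JUN, was at 0.599, 0.43 and 0.946 CPM with vehicle and 1.28, 1.55 and 1.21 CPM with glycine (log2 change 1.04 ± 0.261, edgeR adjusted p = 0.0188). It lost its call once vehicle replicate 1 (0.071), vehicle replicate 2 (0.0585) or glycine replicate 2 (0.0917) was left out, the values being edgeR adjusted p. MAF, a large bZIP factor, went from 3.14 ± 0.277 to 2.05 ± 0.09 CPM (log2 change -0.62, edgeR adjusted p = 0.011, and 0.0538 without glycine replicate 2).

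Of the 29 factors and kinases upstream of these promoters, 1 was higher and 5 were lower (list median -0.07 on the log2 scale). ELK3, an ETS partner of SRF, rose from 20.8 ± 1.27 to 29 ± 2.16 CPM (log2 change 0.48, edgeR adjusted p = 0.00129). ELK4, another ETS partner, had -0.32 (edgeR adjusted p = 0.026). RPS6KA3, a kinase downstream of ERK, went from 622 ± 44.3 to 483 ± 27.8 CPM and MAP2K2, which phosphorylates ERK, from 283 ± 26.2 to 222 ± 12.2 CPM (log2 changes of -0.37 and -0.35, edgeR adjusted p = 0.00669 and 0.00956). The CREB coactivators CRTC3 and CRTC1 had -0.30 and -0.31 (edgeR adjusted p = 0.0146 and 0.0187). Leaving out glycine replicate 2, the deepest library, removed the calls of ELK4 (0.103), CRTC1 (0.0732) and CRTC3 (0.0598), each an edgeR adjusted p. ELK4 was also lost without vehicle replicate 1 (0.0717), and CRTC1 without vehicle replicate 3 (0.0615) or glycine replicate 3 (0.0621). ELK3, RPS6KA3 and MAP2K2 passed in every such fit.

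Of 14 tested feedback inhibitors of MAP kinases, 4 were higher and 1 lower (list median 0.04 on the log2 scale). DUSP5, given above, was one of them. SPRED3, an inhibitor of RAS signalling, went from 1.64 ± 0.45 to 3.23 ± 0.0761 CPM (log2 change 0.98, edgeR adjusted p = 0.00299). DUSP4, another nuclear phosphatase, had 0.66 and SPRY1, a Sprouty protein, had 0.35 (edgeR adjusted p = 0.0252 and 0.0295). DUSP10, a phosphatase of p38 and JNK, went from 4.72 ± 0.489 to 3.1 ± 0.513 CPM (log2 change -0.60, edgeR adjusted p = 0.0145). DUSP4 lost its call without vehicle replicate 1 (0.107), glycine replicate 2 (0.0984) or glycine replicate 3 (0.1), each an edgeR adjusted p. SPRY1 lost it without vehicle replicate 2 (0.0888), glycine replicate 2 (0.0501) or glycine replicate 3 (0.146), and DUSP10 without glycine replicate 1 (0.0513) or glycine replicate 2 (0.0557).

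Known targets of these factors were listed apart, also with earlier results known, so their counts are a description. Of 14 AP-1 targets, 8 were high enough to be tested, and 6 of those were higher and 0 lower (list median 0.62 on the log2 scale). IL11 went from 10.6, 10.4 and 9.71 CPM to 19.6, 22.1 and 22.3 CPM (log2 change 1.06 ± 0.083, edgeR adjusted p = 3.71e-06). TIMP1, an inhibitor of metalloproteinases, and CCND1, cyclin D1, had log2 changes of 0.48 and 0.33 (edgeR adjusted p = 0.00117 and 0.00467). MMP3, a metalloproteinase, went from 0.585 ± 0.0358 to 1.3 ± 0.0449 CPM (log2 change 1.14, edgeR adjusted p = 0.00268). PLAUR, the urokinase receptor, had 0.76 (edgeR adjusted p = 0.00329). All 6 calls held whichever library was left out. MMP1, MMP9, MMP10, CD44, VIM and GJA1 were too low to test.

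Of 10 EGR1 targets, 3 were higher and 0 lower (list median 0.02 on the log2 scale). CDKN1A, the cell cycle inhibitor p21, went from 130.0 ± 10.7 to 164 ± 5.45 CPM (log2 change 0.34, edgeR adjusted p = 0.00641). PDGFA and PDGFB, chains of platelet-derived growth factor, had 0.57 and 0.40 (edgeR adjusted p = 0.0231 and 0.0254). PDGFA lost its call without vehicle replicate 1 (0.0589), vehicle replicate 3 (0.0664), glycine replicate 1 (0.0779) or glycine replicate 3 (0.0875). PDGFB kept its call without vehicle replicate 2 and lost it without any other library, with an edgeR adjusted p of 0.0695 and 0.0569 without vehicle replicates 1 and 3 and of 0.0639, 0.0558 and 0.109 without glycine replicates 1 to 3. Neither PDGFA nor PDGFB was called by the DESeq2 Wald test on all libraries (adjusted p = 0.053 and 0.0503).

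The targets and partners of MYC formed the last lists. Of 22 MYC targets, 4 were higher, 0 lower and 18 not called. Their log2 changes were above 0 for 20 of the 22, with a median of 0.11, against 0.00 over all tested genes. The share of all tested genes above 0 was not computed. ODC1, the rate-limiting enzyme of polyamine synthesis, went from 296 ± 2.95 to 433 ± 15.9 CPM (log2 change 0.55, edgeR adjusted p = 8.2e-05). The ribosome biogenesis genes NOLC1, MYBBP1A and RRS1 had log2 changes of 0.32, 0.27 and 0.25 (edgeR adjusted p = 0.00442, 0.0122 and 0.0194). MYBBP1A lost its call without vehicle replicate 1 (0.0588) or glycine replicate 1 (0.0938). RRS1 kept its call without vehicle replicate 3 and lost it without any other library, with an edgeR adjusted p of 0.0728 and 0.0547 without vehicle replicates 1 and 2 and of 0.0554, 0.07 and 0.0803 without glycine replicates 1 to 3. Of 12 tested partners and antagonists of MYC, 0 were higher and 2 lower, with a median of -0.06. MXD4, which competes with MYC for MAX, was at 157, 172 and 173 CPM with vehicle and 110.0, 119 and 110.0 CPM with glycine (log2 change -0.56 ± 0.0659, edgeR adjusted p = 9.24e-05). MLXIPL, the glucose-responsive factor ChREBP, had -0.33 (edgeR adjusted p = 0.0149, and 0.0642 without glycine replicate 2). MAX itself stood at 36.1 ± 4.11 and 34.0 ± 2.38 CPM (log2 change -0.09, edgeR adjusted p = 0.573).

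**Figure D5:**
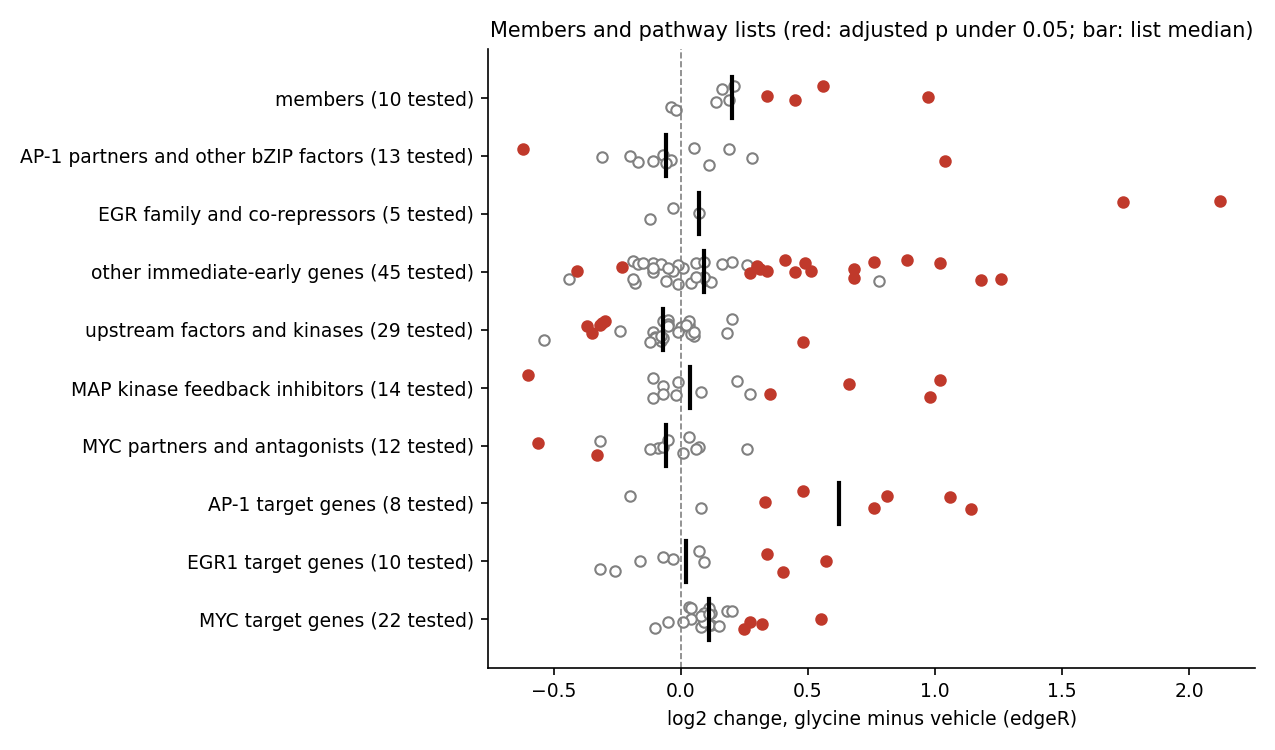
Log2 change (horizontal axis, glycine minus vehicle, edgeR) of every tested gene in the 10 immediate-early genes and the 9 pathway lists (rows, number tested in brackets); red points passed the adjusted p threshold of 0.05 and black bars are list medians. The AP-1 targets, with 8 of 14 tested, have the median farthest from 0, at 0.62. The upstream factors have more points called lower, 5, than higher, 1. The lists were written with earlier results of these data known, so the values are a description.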

How the data were processed

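Total RNA of HepG2 cells was sequenced in 3 vehicle and 3 glycine libraries. The deposited values are counts of reads per gene, not normalized. Per the labels, the authors used Trimmomatic 0.36, STAR 2.5.2b and featureCounts from Subread 1.5.2 with GRCh38. The strand setting is not given in the sources used here, so reads of overlapping genes on opposite strands may have been mixed or left uncounted. Of 57500 genes, 56898 were in GENCODE 29 and 56410 had a symbol. The paper stated no test for single genes.

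Counts were tested in edgeR 4.0.16 under R 4.3.3 by quasi-likelihood (two-sided, group alone). Genes passed the edgeR filter (minimum count 10, minimum total 15), TMM scaling (a trimmed mean of M values) was applied, and p-values were adjusted by Benjamini-Hochberg over 15492 genes. Standard errors were derived from each log2 change and its F statistic. CPM used scaled library sizes, and log2 CPM a prior count of 2. Counting limits cover counting error only, since the reads carried no molecular identifiers and can be copies of 1 molecule. No replicates agreed within sampling noise. The test was tried on simulated counts for glycine against vehicle: among 15323 genes, 200 carried a log2 change of 1, of which 188 (94%) were found, beside 7 false calls. Smaller changes were not simulated, so the share found does not apply to them.

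The genes and lists were chosen with earlier results of these data known. Named were all 10 immediate-early genes, up to 5 genes past the threshold per list and direction by smallest p, and the 5 genes nearest to EGR1. FOSL2, JUND, EGR2, NAB1, NAB2, WT1 and MAX complete their families, the remaining untested AP-1 targets and the marker genes were added, and all of these were chosen after their values were seen. Alternatives were other scaling factors and filters, DESeq2 1.42.0, limma 3.58.1 with voom, a replicate block, a loess correction for gene length (span 0.5) and fits with 1 library omitted. The length correction of the deviations and the restrictions of lists to at least 1 CPM or to genes at the filter minimum in both groups were added after the data were seen.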

Additional observations from a re-analysis of the deposited data

How the results depend on the processing

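The 4 immediate-early genes past the threshold, and the 6 that were not, stayed on their side under every other scaling, filter, tool and correction, except that FOS and FOSB were not tested with a filter of at least 1 CPM in 3 libraries. The 4 kept their direction throughout. FOSB and MYC, both near 0, changed sign between fits that left out a library, from -0.20 to 0.05 and from -0.11 to 0.04. The number past the threshold ran from 3 to 4 over the fits that left out a library. The log2 change of FOSL1 was 0.52 with the gene length trend removed. With any 1 library omitted, between 587 and 926 genes were called higher and between 655 and 1010 lower, against 1040 and 1013, and between 25 and 31 pathway genes higher and between 3 and 12 lower, against 34 and 11. The 3 was without glycine replicate 2, the deepest library. These fits have fewer samples. Of the 45 pathway genes called, 25 kept the call under every alternative, 20 lost it under at least 1, and none changed direction. Among list genes averaging 1 CPM or more, 31 were higher and 11 lower.

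The study states that every experimental day held control and treated samples. Deviations of same-numbered libraries correlated at -0.0577, -0.0268 and -0.00258, so the numbers showed no such pairing. Vehicle 2 with glycine 1 gave 0.214, vehicle 3 with glycine 2 0.18 and vehicle 1 with glycine 3 0.214. The labels do not give that matching, so no block was fitted on it, and a pairing by day was not tested. With a replicate block, 866 genes were higher and 918 lower, and 1 of the called pathway genes, SGK1, was lost (edgeR adjusted p = 0.0617). FOS, FOSB and the EGR genes other than EGR1 had few counts, which limits their precision.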
